A study of Mus musculus with 6 samples.

Results

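The Hippo pathway genes Yap1, Wwtr1, Tead1, Lats2, Amotl1, Amotl2, Ccn1, Ccn2, Ankrd1 and F3 were followed in KPC1199 cells, a mouse line whose cell type the submitters give as pancreatic tumor cells. These 10 genes were taken by symbol from a table of 57508 genes, and each symbol matched a single row. They were listed with knockdown and WT levels of these same libraries already known, so their difference between the groups is described here and not tested for support. RNA sequencing covered 6 libraries of this one line, 3 with the genotype WT and 3 with the genotype ACSL5 knockdown, a comparison meant to show what ACSL5 does in the progression of pancreatic ductal adenocarcinoma. Titles of the knockdown libraries call them ACSL5 KO. WT libraries are named siACSL5_CY3 and knockdown libraries siACSL5_2260, and the submitters do not explain these names, which share the prefix siACSL5. Time after treatment and the origin of replicates as separate cultures are not stated either, so p-values measure only the spread between libraries, which may be technical.

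YAP (Yap1) and TAZ (Wwtr1) are paralogous transcriptional coactivators that do not bind DNA themselves and act mainly through the TEAD factors. The kinases LATS1 and LATS2 phosphorylate both coactivators and keep them in the cytoplasm, and the motin proteins AMOTL1 and AMOTL2 also hold them there. Genes such as Ccn1, Ccn2, Ankrd1, Lats2 and Amotl2 are classic targets, so that the last pair forms a negative feedback loop. In pancreatic ductal adenocarcinoma, YAP is known as a driver of tumour growth.

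Promoter sequence was available from RefSeq (GRCm38.p6) for 8 of the 10 genes, in 10 windows that reach from 250 bases before an annotated start to 50 after it; Tead1 and Ccn2 had no entry. Windows were searched on both strands for the core of the TEAD motif, GGAATG, whose reverse complement is CATTCC. It was present in 6 of the 8 genes, and 14.7% of 32851 mouse promoter windows of the same length hold it. Ankrd1 had 2 matches, which 1.36% of all windows have. Matches describe letters only and do not show binding. The windows printed here belong to the 3 genes that were higher in knockdown cells (Amotl2, Ccn1 and Lats2), the 2 that were lower (Yap1 and F3), and Ankrd1. Capitals mark GGAATG or CATTCC, and in F3, which has neither, the 2 matches to the AP-1 motif TGANTCA. The AP-1 motif was found in 7.81% of all windows and overlaps no TEAD match in these. Each sequence is written in the direction of transcription. The window of Amotl2 is chr9:102717554-102717853 (plus strand) and that of Ccn1 chr3:145649936-145650235 (minus strand). Lats2 has 2 windows, and the one printed, at the first start, is chr14:57746074-57746373 (minus strand). Those of Yap1, Ankrd1 and F3 are chr9:8004547-8004846 (minus strand), chr19:36119795-36120094 (minus strand) and chr3:121723287-121723586 (plus strand).
Amotl2: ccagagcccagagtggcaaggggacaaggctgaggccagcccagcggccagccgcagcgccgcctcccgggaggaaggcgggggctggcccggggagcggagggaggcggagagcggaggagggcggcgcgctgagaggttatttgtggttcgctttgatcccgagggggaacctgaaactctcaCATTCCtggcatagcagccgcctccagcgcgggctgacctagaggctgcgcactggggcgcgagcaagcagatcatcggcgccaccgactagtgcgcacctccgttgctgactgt
Ccn1: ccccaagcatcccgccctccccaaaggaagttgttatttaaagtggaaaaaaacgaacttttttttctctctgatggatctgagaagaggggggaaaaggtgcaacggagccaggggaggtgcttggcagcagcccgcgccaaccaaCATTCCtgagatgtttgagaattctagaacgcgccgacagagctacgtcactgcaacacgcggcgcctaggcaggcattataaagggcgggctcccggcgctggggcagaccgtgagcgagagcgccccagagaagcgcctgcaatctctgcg
Lats2: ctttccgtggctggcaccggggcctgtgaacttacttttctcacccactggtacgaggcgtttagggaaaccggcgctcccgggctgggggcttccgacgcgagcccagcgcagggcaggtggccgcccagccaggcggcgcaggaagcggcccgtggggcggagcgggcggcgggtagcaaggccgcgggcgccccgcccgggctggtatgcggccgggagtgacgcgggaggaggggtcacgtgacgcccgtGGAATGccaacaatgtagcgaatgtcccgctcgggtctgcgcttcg
Yap1: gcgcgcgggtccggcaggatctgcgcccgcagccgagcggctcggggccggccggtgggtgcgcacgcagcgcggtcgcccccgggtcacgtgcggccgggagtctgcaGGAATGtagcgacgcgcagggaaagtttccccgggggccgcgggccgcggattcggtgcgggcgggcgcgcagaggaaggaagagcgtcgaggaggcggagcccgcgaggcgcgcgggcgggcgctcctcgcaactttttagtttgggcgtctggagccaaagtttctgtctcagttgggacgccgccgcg
Ankrd1: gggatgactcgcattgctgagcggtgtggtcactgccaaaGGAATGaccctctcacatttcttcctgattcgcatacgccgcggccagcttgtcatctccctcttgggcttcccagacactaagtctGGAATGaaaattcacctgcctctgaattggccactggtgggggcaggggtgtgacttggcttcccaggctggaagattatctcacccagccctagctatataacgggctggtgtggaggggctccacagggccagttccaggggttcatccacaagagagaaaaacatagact
F3: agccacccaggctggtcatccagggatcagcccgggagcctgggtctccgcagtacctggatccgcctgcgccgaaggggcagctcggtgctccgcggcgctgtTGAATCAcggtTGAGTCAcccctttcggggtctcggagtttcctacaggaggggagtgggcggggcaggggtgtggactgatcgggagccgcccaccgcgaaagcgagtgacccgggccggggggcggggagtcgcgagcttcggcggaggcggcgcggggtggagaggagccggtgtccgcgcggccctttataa

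Counted from the annotated start, the match of Amotl2 begins at -65, that of Ccn1 at -103, that of Yap1 at -141 and those of Ankrd1 at -210 and -123. In Lats2 it begins 4 bases after the first start, and the window of the second start has none. Wwtr1, which encodes TAZ, has the same match in both of its overlapping windows, at -136 and at -170. The Amotl1 window has neither motif. The AP-1 matches of F3 run from -146 to -140 and from -135 to -129. No window holds the CArG box, the SRF motif found in 1.63% of all windows. Genes with a match thus include some that were higher, 1 that was lower and some that were not called.

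**Figure D1:**
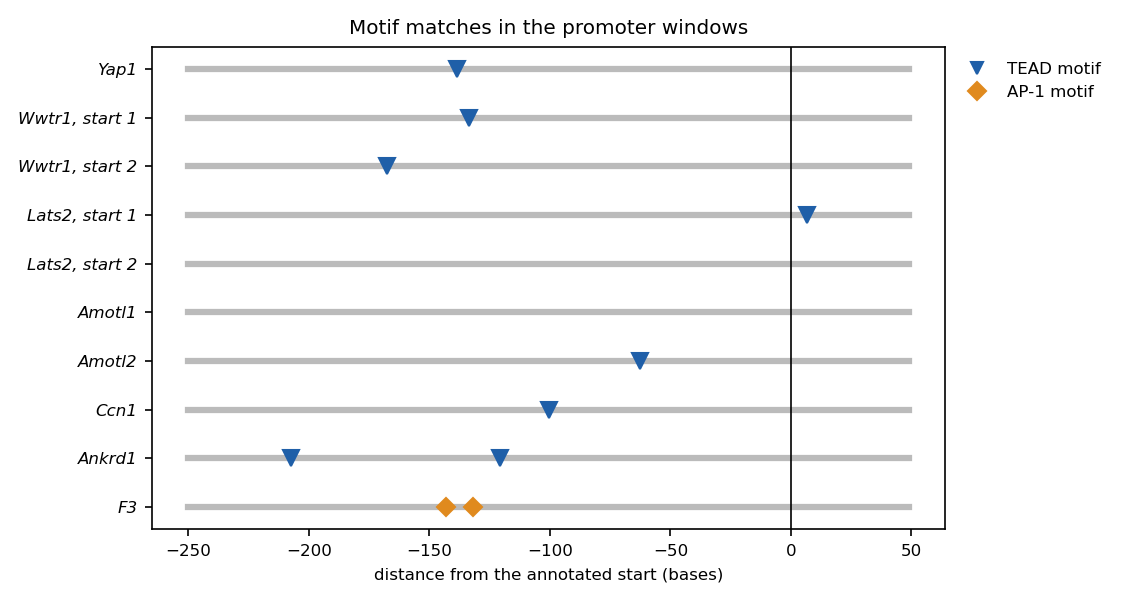
Positions of TEAD (triangles) and AP-1 (diamonds) motif matches in the 10 promoter windows; the horizontal axis is the distance in bases from the annotated start, with the line at 0. Ankrd1 has 2 TEAD matches, F3 has only AP-1 matches, and the Amotl1 window and the second Lats2 window have none.

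In the GENCODE M21 annotation of GRCm38, all 10 are protein-coding genes. Yap1 lies at chr9:7931999-8004596, Wwtr1 at chr3:57455649-57575910, Lats2 at chr14:57689662-57758388, Amotl1 at chr9:14541966-14645056, Ccn1 at chr3:145646976-145649981 and Ankrd1 at chr19:36111961-36120099, all on the minus strand. Tead1 at chr7:112679318-112906807, Amotl2 at chr9:102716672-102733418, Ccn2 at chr10:24595442-24598683 and F3 at chr3:121723537-121735048 are on the plus strand. The promoter windows of Amotl1, Amotl2, Lats2 and Ankrd1 lie wholly inside these gene spans. Annotated starts further out were not searched, so a missing match holds for the window only. No other annotated gene overlaps Amotl2, Ccn1, Ankrd1 or F3, while each of the other 6 overlaps at least 1, and reads in such shared stretches may be split uncertainly.

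Library totals ranged from 21794244 to 29996194 expected counts. Acsl5 itself was at 265.2 to 342.4 CPM (counts scaled to a common library size with TMM factors) in the WT libraries and at 49.8 to 57.2 CPM in the knockdown libraries, which left 18.5% of the WT mean. One WT library, replicate 1, differed most from the rest, with correlations of log2 CPM across genes of 0.887 to 0.908 against 0.975 to 0.997 for the 10 other pairs. The differences of the 10 genes are therefore given with and without it. Epithelial markers were abundant, with summed levels of 6978 to 13160 CPM in WT and 7224 to 7402 CPM in knockdown libraries, although Cldn4 was listed at 0. Of 8 fibroblast markers, 4 stayed below 1 CPM in every library (Lum and Postn at 0), and 4 were tested, among them Col3a1, Pdgfra and Pdgfrb. The sum over all 8 was 225.4, 368.5 and 358.6 CPM in WT and 292.2, 311.6 and 295.8 CPM in knockdown libraries. Without WT replicate 1, edgeR called 1 fibroblast marker higher (Pdgfrb, 0.73) and 2 lower (Pdgfra, -0.62, and Col3a1, -0.27), and 1 was not called. Of the epithelial markers it called 3 higher (Krt7, Cdh1 and Krt18) and 1 lower (Epcam). Over all tested genes, 16.3% were called higher and 18.0% lower. With the GC trend removed, 2 epithelial markers were called higher and 3 lower, and 1 fibroblast marker higher and 3 lower. DESeq2 called 3 epithelial markers higher and 0 lower. Of the markers of endothelial cells, 5 of 6 stayed below 1 CPM, with Cdh5, Tek and Emcn at 0. The sum over all 6 was 2.14 to 3.77 CPM in WT and 3.40 to 3.72 CPM in knockdown libraries. For immune cells, 6 of 7 stayed below 1 CPM, with Adgre1 and Cd3e among those at 0. Their sums over all 7 were 3.33 to 4.43 CPM in WT and 4.83 to 5.39 CPM in knockdown libraries. The part of these differences in the results was not tested. In bulk RNA, fewer cells with a transcript and less of it per cell cannot be told apart.

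The gene response was split. Without WT replicate 1, Amotl2, Ccn1 and Lats2 were higher in knockdown cells, F3 and Yap1 were lower, and Wwtr1, Tead1, Amotl1, Ccn2 and Ankrd1 did not pass the threshold of an adjusted p below 0.05 in edgeR. That makes 3 of 10 called higher, where 16.3% of 15152 tested genes were, and 2 of 10 called lower, where 18.0% were. Both directions together are 5 of 10 beside 34.3% of all genes, and nothing is read from this since the genes were chosen with the contrast known. With all 6 libraries edgeR called none of the 10 and 0% of 14679 genes, of which 2351 had an unadjusted p below 0.05. Of the 10, 4 had such a p (Lats2, Amotl2, Ccn1 and F3). DESeq2 called the same 4 over the 6 libraries, and 7.68% of all genes. Limma-voom and limma-trend called none of the 10. With quality weights per library, limma-voom called 6 of the 10, beside 5937 of all 14679 genes. The median log2 fold change of the 10 genes was -0.04 without WT replicate 1 and 0.23 with it, next to -0.01 and -0.02 over all genes tested. All 10 passed the filter on low counts in both fits.

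**Figure D2:**
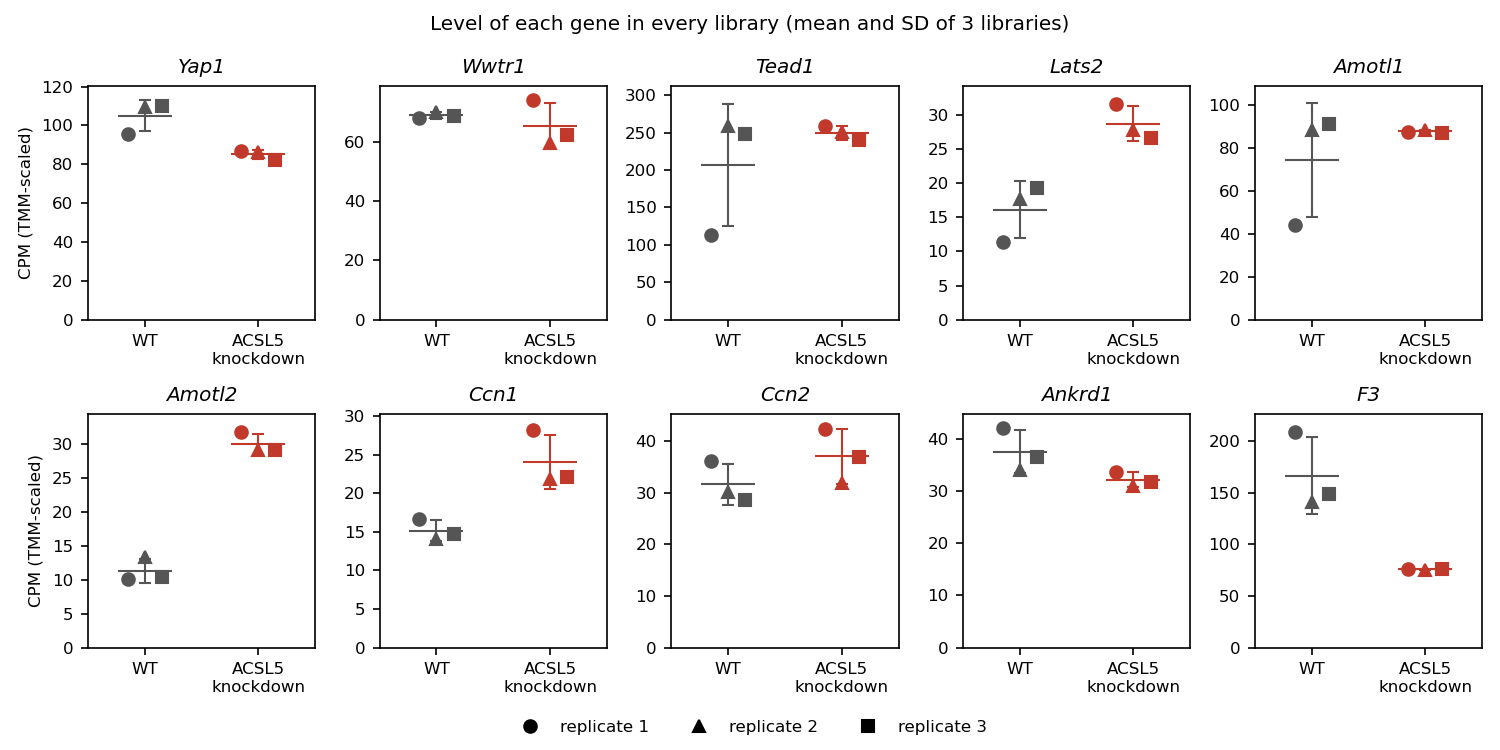
Level of each of the 10 genes in every library, in TMM-scaled CPM on linear axes from 0; symbols give the replicate, horizontal bars the mean and whiskers the SD of 3 libraries. The groups are separate for Yap1, Lats2, Amotl2, Ccn1, Ankrd1 and F3, and WT replicate 1 lies far below the other WT libraries for Tead1 and Amotl1.

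Among the coactivators, Yap1 was at 95.7, 109.3 and 110.0 CPM in the WT libraries and at 86.8, 86.2 and 82.5 CPM in the knockdown libraries, in the order of their numbers. All knockdown libraries were below all WT libraries. Its log2 fold change was -0.38 (SE 0.0484) without WT replicate 1, or 0.768 of the WT level, and -0.30 (SE 0.127) with it. With deposited TPM over the 6 libraries the sign was positive (0.02), since WT replicate 1 had 19.1 TPM against 41.4 and 44.2 TPM in the other WT libraries. Wwtr1 was at 67.9, 70.0 and 68.8 CPM in WT and at 74.2, 59.7 and 62.4 CPM in knockdown libraries. Here knockdown replicate 1 was the highest of all 6 and the other knockdown libraries the lowest, so the groups overlap. On the log2 scale the difference was -0.10 (SE 0.0829) without WT replicate 1 and -0.07 (SE 0.137) with it, and 0.02 without WT replicate 1 once the GC trend was removed. Per length, YAP transcripts outnumbered those of TAZ in every library. The ratio of Yap1 to Wwtr1 in TPM was 1.62, 1.83 and 1.99 in WT and 1.39, 1.73 and 1.60 in knockdown libraries. Knockdown replicate 1 had the lowest ratio and WT replicate 3 the highest, and the groups overlap through WT replicate 1.

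Tead1, which encodes a DNA-binding partner of YAP and TAZ, was at 112.8, 259.2 and 248.7 CPM in WT and at 258.8, 250.8 and 240.2 CPM in knockdown libraries. Only WT replicate 1 was low, and the other 5 libraries lie close together. The log2 difference was -0.04 (SE 0.0466) without WT replicate 1 and 0.27 (SE 0.322) with it, so its sign depends on that library. Without WT replicate 1 the sign also turned with the GC trend (0.04) or the length trend (0.07) removed. The gene is the longest of the 10, at 9964 bases in the authors' table.

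Set against the other TEAD genes, Tead1 was the most abundant per length in 5 of the 6 libraries. It made up 20.9%, 45.2% and 47.7% of the summed TEAD TPM in the WT libraries and 47.8%, 52.7% and 47.9% in the knockdown libraries. Tead2, at 2140 bases the shortest of the 4 in the authors' table, made up 65.3%, 33.7% and 32.6% in WT and 24.1%, 22.8% and 26.7% in knockdown libraries. WT replicate 1 thus had the reverse order of Tead1 and Tead2. Tead2 was at 57.6, 35.5 and 33.6 CPM in WT and at 22.0, 24.3 and 24.3 CPM in knockdown libraries, with all knockdown libraries lower. It fell by a log2 fold change of -0.57 (SE 0.0812, edgeR adjusted p = 4.92e-04) without WT replicate 1, and was at -0.84 with it. Tead3 was at 0.37 (edgeR adjusted p = 0.0846) and Tead4 at -0.24 (edgeR adjusted p = 0.0334) without WT replicate 1; Tead4 lost its call with library totals, with DESeq2, with TPM (-0.06 on log2(TPM + 1)) and when WT replicate 2 or 3 or knockdown replicate 2 or 3 was also left out (-0.30 to -0.19, adjusted p 0.0703 to 0.254).

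**Figure D3:**
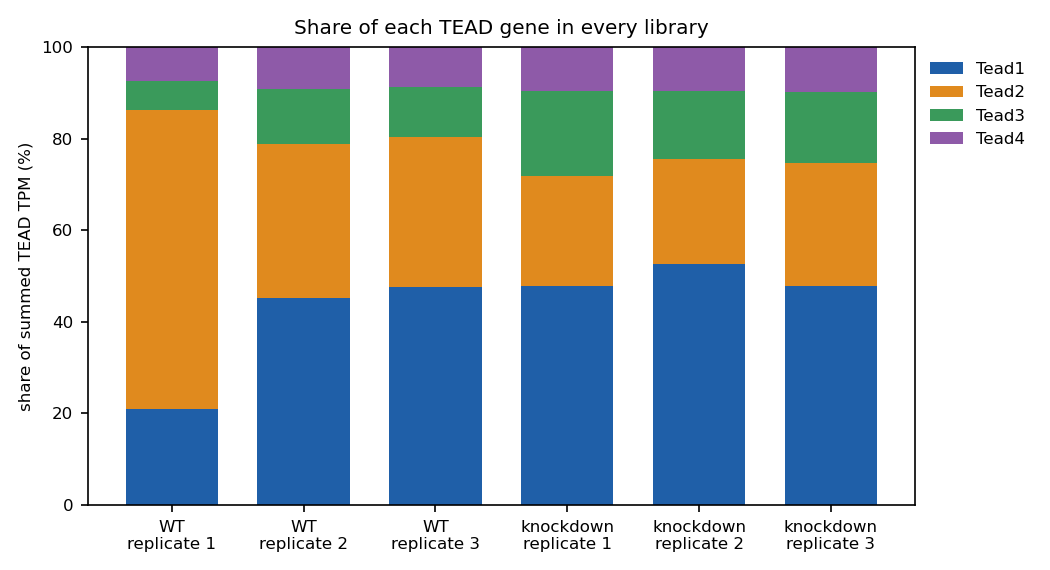
Share of each TEAD gene in the summed TPM of Tead1 to Tead4, in percent, with 1 stacked bar per library. Tead1 holds 45.2% to 52.7% in 5 libraries and 20.9% in WT replicate 1, where Tead2 holds 65.3%.

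Of the feedback inhibitors, Amotl2, whose protein retains YAP outside the nucleus and at junctions, had the highest fold change of the 10. It was at 10.1, 13.3 and 10.4 CPM in WT and at 31.7, 29.0 and 29.0 CPM in knockdown libraries. Every knockdown library was more than 2-fold above every WT library. Its log2 fold change was 1.32 (SE 0.113) without WT replicate 1, a 2.50-fold difference, and 1.41 (SE 0.158) with it. Over all alternatives tried it stayed between 1.04 and 1.61. Lats2, the kinase gene, was at 11.4, 17.7 and 19.3 CPM in WT and at 31.5, 27.7 and 26.6 CPM in knockdown libraries. The groups do not overlap, with knockdown replicate 1 highest and WT replicate 1 lowest. On the log2 scale the difference was 0.61 (SE 0.0934) without WT replicate 1 and 0.83 (SE 0.224) with it. An annotated neighbour, Gm49361, overlaps Lats2 on the same strand, so reads in the shared part cannot be assigned with certainty.

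Amotl1, the paralog of Amotl2, was at 44.1, 88.5 and 91.1 CPM in WT and at 87.7, 88.8 and 87.1 CPM in knockdown libraries. Apart from WT replicate 1, all libraries lie within a narrow band. The log2 difference was -0.05 (SE 0.0484) without WT replicate 1 and 0.24 (SE 0.286) with it, and 0.05 without that library on the log2(TPM + 1) scale. The ratio of Amotl1 to Amotl2 in TPM was 1.74, 2.06 and 2.64 in WT and 1.05, 1.18 and 1.04 in knockdown libraries. In every knockdown library the paralogs were thus near parity, below each WT library. Over the WT libraries this ratio varied more than over the knockdown libraries.

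The secreted matricellular proteins CYR61 and CTGF are encoded by Ccn1 and Ccn2, the targets most often used to read YAP activity. Ccn1 was at 16.7, 14.1 and 14.7 CPM in WT and at 28.2, 21.9 and 22.1 CPM in knockdown libraries. All knockdown libraries were higher, replicate 1 most of all. Its log2 fold change was 0.72 (SE 0.118) without WT replicate 1, 0.67 (SE 0.160) with it, and 0.61 when knockdown replicate 1 was left out as well as WT replicate 1. Ccn2 was at 36.1, 30.1 and 28.6 CPM in WT and at 42.4, 31.8 and 36.9 CPM in knockdown libraries. WT replicate 1 lay among the knockdown libraries, and in CPM the groups separate only without it. On the log2 scale the difference was 0.32 (SE 0.110) without WT replicate 1 and 0.23 (SE 0.167) with it. The gene was not called, and 7 alternatives without WT replicate 1 did call it, among them DESeq2 and library totals. An antisense transcript, Gm15270, overlaps Ccn2, and the use of strand in counting is not stated, so their reads cannot be told apart. The ratio of Ccn2 to Ccn1 in TPM was 1.89, 1.83 and 1.68 in WT and 1.32, 1.20 and 1.40 in knockdown libraries, with no overlap between the groups.

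Ankrd1, a nuclear ankyrin repeat protein gene and the one with 2 TEAD motif matches, was at 42.2, 34.1 and 36.6 CPM in WT and at 33.8, 31.1 and 31.8 CPM in knockdown libraries. The knockdown libraries were all lower, by a small margin over WT replicate 2. The log2 difference was -0.15 (SE 0.0711) without WT replicate 1 and -0.22 (SE 0.135) with it, and with TPM over the 6 libraries it was 0.10. Ccn1, by contrast, was higher in the same libraries.

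F3 encodes tissue factor, the membrane receptor that starts coagulation, and was the lowest of the 10 by fold change. It was at 209.0, 141.1 and 149.2 CPM in WT and at 76.1, 75.1 and 75.8 CPM in knockdown libraries. The knockdown libraries were nearly equal and all were far below the WT libraries. Its log2 fold change was -0.96 (SE 0.0488) without WT replicate 1, or 0.516 of the WT level, and -1.14 (SE 0.186) with it. In TPM, 126.6, 136.3 and 143.4 in WT stood against 70.5, 73.3 and 73.5 in knockdown libraries. Over all alternatives its log2 fold change lay between -1.24 and -0.88. The ratio of F3 to Ccn1 in TPM was 17.4, 11.9 and 12.0 in WT and 3.08, 4.03 and 4.07 in knockdown libraries. These classic targets hence went in opposite directions, and the ratio separates the groups.

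**Figure D4:**
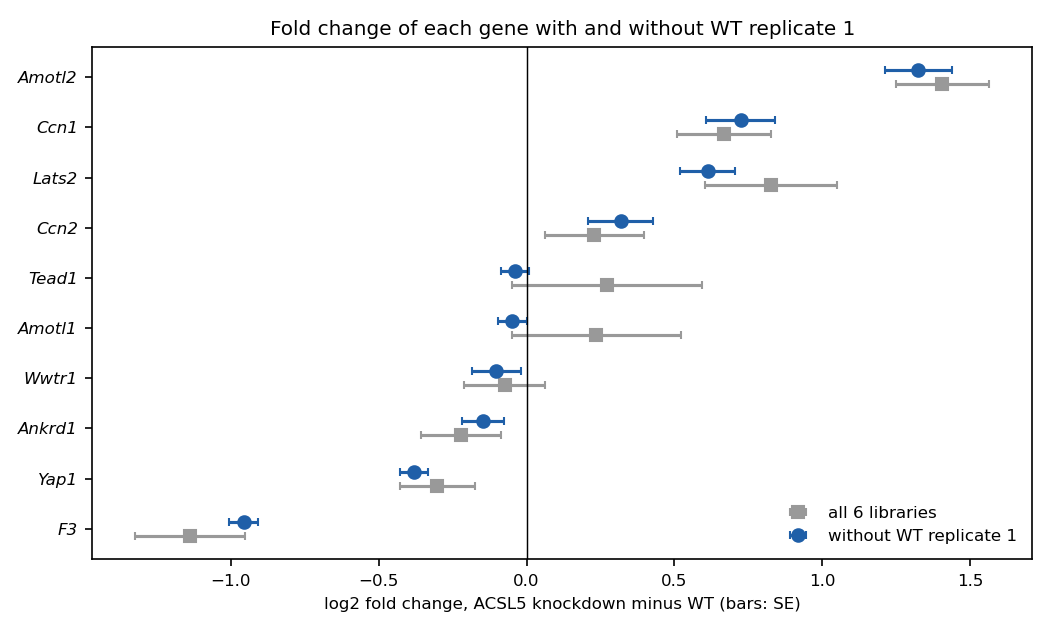
Log2 fold change of each of the 10 genes, ACSL5 knockdown minus WT, with all 6 libraries (squares) and without WT replicate 1 (circles); bars are SE. Amotl2, Ccn1 and Lats2 lie right of 0 and Yap1 and F3 left of 0 in both, while Tead1 and Amotl1 cross 0 when WT replicate 1 is left out.

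Levels were ordered by TPM, which corrects for length. In WT replicates 2 and 3 the order was F3 (139.8 TPM), Tead1 (48.1), Yap1 (42.8), Ankrd1 (29.1), Wwtr1 (22.4), Ccn2 (20.5), Amotl1 (15.2), Ccn1 (11.7), Amotl2 (6.56) and Lats2 (5.82). Ranges of neighbours in this order overlapped only for Amotl2 and Lats2. With WT replicate 1 the order of the means was the same, but all neighbours except F3 and Tead1 overlapped. In knockdown cells F3 led with 72.5 ± 1.69 TPM (SD, n = 3), followed by Tead1 (45.8 ± 2.74) and Yap1 (33.3 ± 0.664). Ankrd1 (26.9 ± 0.894), Ccn2 (25.8 ± 4.26) and Wwtr1 (21.3 ± 2.04) each overlapped with the next, the last of them with Ccn1 (19.7 ± 2.77). Amotl1 (15.7 ± 0.448), Amotl2 (14.5 ± 0.608) and Lats2 (8.58 ± 0.457) followed without overlap. Ccn1 thus stood above Amotl1 in knockdown cells and below it in WT replicates 2 and 3.

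How far WT replicate 1 departed from the other WT libraries went with gene length. On the log2 TPM scale it was at -0.14 for F3 (1872 bases), -0.69 for Ccn1 (2019 bases), -0.65 for Ankrd1 (2020 bases) and -0.58 for Ccn2 (2398 bases). For the longer genes it was at -1.86 for Amotl1 (3046 bases), -1.17 for Yap1 (4171 bases), -1.44 for Amotl2 (4222 bases) and -0.93 for Wwtr1 (4533 bases). Lats2 (5191 bases) was at -1.62 and Tead1 (9964 bases) at -2.17. Lengths are those of the authors' table. For Amotl1 the annotated 3' UTR of the longest protein-coding transcript alone has 5829 bases, more than the 3046 listed. In knockdown replicate 1, Amotl1 had 87.7 CPM and 15.4 TPM, where Yap1 (4171 bases) had 86.8 CPM and 32.8 TPM. The TPM values thus rest on a longer length for Amotl1 than for Yap1, and not on the 3046 bases listed. This limits its place in the length order, in the rho over the 10 genes and in the removal of length trends. Spearman's rho was -0.794 over the 10 genes and -0.488 over 15152 genes, all read in the same library, and is given as a description. The median was 0.29 over the 1517 shortest genes and -1.60 over the 1516 longest.

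Fold changes without WT replicate 1 also went with GC content of the longest annotated transcript, with a rho of 0.842 over the 10 genes and 0.322 over 14591 genes, given as descriptions. Yap1 (45.3% GC) and F3 (46.3%) were lower and Lats2 (52.2%), Ccn1 (52.8%) and Amotl2 (56.7%) were higher. With the GC trend of each library removed, the same 3 genes were called higher and the same 2 lower, beside 31.6% of all genes. The values were then 1.17 for Amotl2, 0.70 for Ccn1, 0.60 for Lats2, -0.28 for Yap1 and -0.88 for F3. Over the 6 libraries, 6 of the 10 genes had groups that do not overlap in CPM, as had 34.3% of all genes, and from this nothing is read either.

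The wider pathway was read from lists of other genes in the fit without WT replicate 1, where the median of all genes was -0.01 and 16.3% of them were called higher and 18.0% lower. For Hippo kinases, scaffolds and regulators, 38 symbols were listed, of which 36 matched a row and 34 were tested. Of these 34 genes, 10 rose, 12 fell and 12 were not called, with a median of -0.06 (0.13 with all 6 libraries). The largest difference was in Amot, the founding motin gene, at 17.8, 47.3 and 47.3 CPM in WT and 22.8, 20.7 and 20.9 CPM in knockdown libraries. WT replicate 1 was below all knockdown libraries, and the other WT libraries were more than 2-fold above them. On the log2 scale the difference was -1.16 (SE 0.0709, edgeR adjusted p = 3.45e-06), so that the 3 motin genes differed in direction, with Amotl2 higher and Amotl1 near 0. Limd1, whose LIM protein binds LATS kinases, was at -0.69 (SE 0.0690, edgeR adjusted p = 5.92e-05). The related LIM protein genes Ajuba (0.69, SE 0.0899, edgeR adjusted p = 2.81e-04) and Wtip (0.74, SE 0.110, edgeR adjusted p = 6.24e-04) rose, although Wtip was at 0.04 (edgeR adjusted p = 0.82) after GC correction. Of the core kinase genes, named for their role after their values were seen, Lats1 rose by 0.38 (edgeR adjusted p = 0.00137), Stk3 was at -0.56 (edgeR adjusted p = 1.37e-04) and Stk4 at 0.005 (edgeR adjusted p = 0.961). With all 6 libraries, none of these was called and the values were -0.81 for Amot, -0.49 for Limd1, 0.45 for Ajuba, 0.19 for Wtip, 0.67 for Lats1, -0.42 for Stk3 and 0.18 for Stk4.

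Of the TEAD and VGLL cofactor genes other than Tead1, 4 of 7 were tested, with 1 higher and 2 lower (0 higher and 2 lower with the GC trend removed). Vgll4, which encodes a competitor of YAP for TEAD, was at 11.1, 35.4 and 31.1 CPM in WT and at 42.5, 40.3 and 43.0 CPM in knockdown libraries. All knockdown libraries were higher. The log2 difference was 0.32 (SE 0.0763, edgeR adjusted p = 0.00808), but its call was lost after GC correction (0.20, edgeR adjusted p = 0.0531) and without WT replicate 3 (0.23, edgeR adjusted p = 0.135). With all 6 libraries Vgll4 was at 0.70, Tead3 at 0.62 and Tead4 at -0.02, none of them called. Vgll1 and Vgll2 were listed at 0 in every library and Vgll3 stayed below 1 CPM.

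A published signature of YAP/TAZ targets was used without the 10 genes above, which left 16, of which 14 were tested. Of these 6 rose, 4 fell and 4 were not called, and the median was -0.08 (0.12 with all 6 libraries). The split was 3 higher and 5 lower with the GC trend removed. On log2(TPM + 1) it was 5 higher and 2 lower, beside 1459 higher and 1008 lower of all 13881 genes tested there. Gadd45a, a gene of growth arrest and DNA damage, was at 9.61, 4.43 and 3.60 CPM in WT and at 12.3, 7.89 and 9.81 CPM in knockdown libraries. WT replicate 1 lay among the knockdown libraries. Its log2 fold change was 1.30 (SE 0.199, edgeR adjusted p = 9.1e-04). The forkhead factor gene Foxf2 was at 0.49 (edgeR adjusted p = 0.0265), and GC correction brought it to 0.18 (edgeR adjusted p = 0.225). Its call was also lost without WT replicate 2 (0.48, edgeR adjusted p = 0.161) or 3 (0.50, edgeR adjusted p = 0.16). The guanine nucleotide exchange factor gene Dock5 fell by a log2 fold change of -0.46 (edgeR adjusted p = 3.88e-04) and Tgfb2, a TGF-beta ligand gene, of -0.70 (edgeR adjusted p = 0.00491), the latter not called without WT replicate 3 (edgeR adjusted p = 0.0768). Over the 6 libraries Dock5 was at -0.07, Gadd45a at 0.77, Foxf2 at 0.29 and Tgfb2 at -0.60, none of them called.

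Of 30 further genes reported as YAP targets, 24 were tested, with 7 higher, 6 lower and a median of -0.03 (0.14 with all 6 libraries). The split was 5 higher and 2 lower with the GC trend removed. On log2(TPM + 1), 22 were tested, with 5 higher and 1 lower. Over all 13881 genes tested on that scale, 1459 were called higher and 1008 lower. Areg encodes amphiregulin, a ligand of the EGF receptor. It was at 57.0, 28.4 and 26.3 CPM in WT and at 13.1, 13.1 and 11.9 CPM in knockdown libraries. The knockdown libraries were nearly equal and all far below the WT libraries, of which replicate 1 was the highest. The log2 fold change was -1.12 (SE 0.0916, edgeR adjusted p = 1.85e-05), or -1.55 with all 6 libraries. Col8a1, a short-chain collagen gene below 5 CPM, was at -1.17 (edgeR adjusted p = 0.00454). Myc was at 0.79 (edgeR adjusted p = 2.3e-05) and Lgr5, a receptor gene known from stem cells, at 0.74 (edgeR adjusted p = 0.00584, and 0.0906 without WT replicate 3). Ajuba stands in this list as well as among the Hippo regulators, and Ptpn14 in the latter and in the signature. Of the 4 other CCN genes, 3 were tested and 1 was called, Ccn5, named after its value was seen, at 1.24 (edgeR adjusted p = 0.0108) and below 5 CPM. The median of these 3 genes was 0.42, and 0.19 when WT replicate 3 was also left out. With WT replicate 1 included, Myc was at 0.49, Lgr5 at 0.82, Col8a1 at -1.02 and Ccn5 at 0.55, none of them called.

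**Figure D5:**
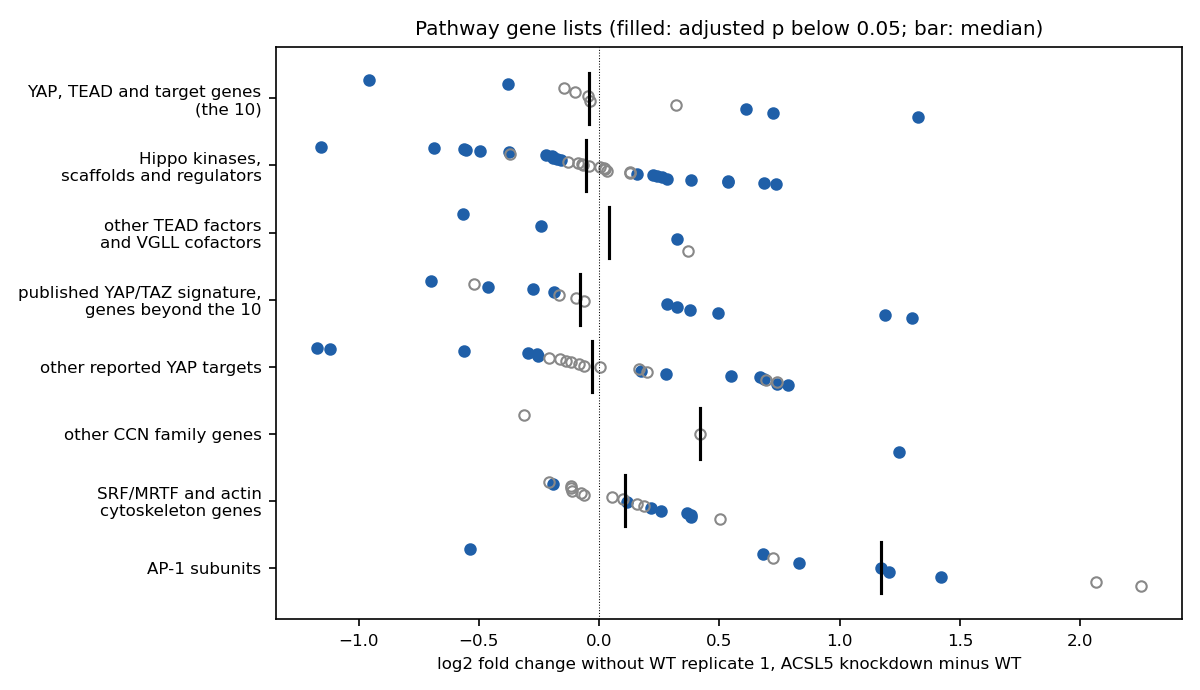
Log2 fold change without WT replicate 1 for the 10 genes and for 7 lists of related genes; each point is a gene, filled where the edgeR adjusted p was below 0.05, and the bar is the median. Called genes lie on either side of 0 in the Hippo, signature and target lists, and most AP-1 subunits lie right of 0.

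Factors that share target genes with YAP and TEAD were listed too. Of 22 genes of SRF, its MRTF coactivators and the actin cytoskeleton, 18 were tested, with 6 higher, 1 lower and a median of 0.11 (0.15 with all 6 libraries). The split was 4 higher and 4 lower with the GC trend removed. Srf itself was at 0.38 (edgeR adjusted p = 0.00328), with the sign turned after GC correction (-0.19, edgeR adjusted p = 0.332), and at 0.32 (edgeR adjusted p = 0.0612) without WT replicate 3. The cytoplasmic actin gene Actg1 was at 0.38 (edgeR adjusted p = 8.49e-05), the calponin gene Cnn2 at 0.36 (edgeR adjusted p = 8.06e-04), Fhl3 at 0.26 (edgeR adjusted p = 0.0485) and Tagln2 at -0.19 (edgeR adjusted p = 0.00592). Fhl3 lost its call whichever further library was left out (edgeR adjusted p 0.0538 to 0.306), and Tagln2 without WT replicate 2 (0.0839) or 3 (0.0637). Over the 6 libraries Srf was at 0.44, Actg1 at 0.10, Cnn2 at 0.25, Fhl3 at 0.30 and Tagln2 at -0.47. All 9 AP-1 subunit genes were tested, with 5 higher, 1 lower and a median of 1.17 (1.11 with all 6 libraries). Jun was at 1.42 (edgeR adjusted p = 0.0455), Atf3 at 1.17 (edgeR adjusted p = 0.00129), Fosl1 at 0.83 (edgeR adjusted p = 0.017), Fosl2 at 0.68 (edgeR adjusted p = 4.47e-04) and Fos at -0.54 (edgeR adjusted p = 0.0138). Jun lost its call after GC correction (edgeR adjusted p = 0.0669) and without WT replicate 2 (0.193) or 3 (0.259). Fosl1 lost it without WT replicate 2 (0.0628) or 3 (0.110), and Fos without WT replicate 2 (0.160) or knockdown replicate 2 (0.0587) or 3 (0.0536). With WT replicate 1 included, Jun was at 1.50, Atf3 at 1.11, Fosl1 at 0.58, Fosl2 at 0.92 and Fos at -0.42. With all 6 libraries edgeR called no gene of these 7 lists. An unadjusted p below 0.05 was found for 3 of 34 Hippo regulators, 1 of 4 TEAD or VGLL genes, 1 of 14 signature genes and 6 of 24 further targets. It was also found for 1 of 3 CCN genes, 1 of 18 genes of the SRF list and 5 of 9 AP-1 genes. Over all genes this was 2351 of 14679. DESeq2 called 1, 1, 0, 3, 0, 1 and 5 of them in the same order, and 7.68% of all genes. The summed level of the 9 AP-1 genes was 160.6 to 176.8 CPM in WT and 462.0, 276.5 and 295.6 CPM in the knockdown libraries. Knockdown replicate 1, the highest here, was also the highest knockdown library for 9 of the 10 genes, all but Amotl1. The margin over the next knockdown library was small for Yap1 (86.78 against 86.21 CPM) and F3 (76.07 against 75.81 CPM). The share of all genes with this library highest was not counted, so nothing is read from this. With knockdown replicate 1 and WT replicate 1 left out, Lats2 was at 0.55, Amotl2 at 1.30, Ccn1 at 0.61 and Yap1 at -0.38. F3 was then at -0.94, Tead1 at -0.05 and Ankrd1 at -0.17. Wwtr1 (-0.18) and Ccn2 (0.23) were then called as well. F3, with its 2 AP-1 motif matches, was lower in the same libraries. A link between these matches and the level of F3 was not tested.

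A 7-base sequence, GAACTAC or AACTACA, had been picked from fold changes of these libraries as frequent in the 3' UTRs of lower genes, so its presence supports nothing here. It was looked for in the annotated 3' UTR of the longest protein-coding transcript (GENCODE M21, GRCm38). It was present in 3 of the 10 genes and in 11.9% of 12302 tested genes with a 3' UTR of at least 50 bases. The sites, in capitals with their neighbouring bases in transcript direction, are shown because they sit in genes that were lower (F3), higher (Amotl2) and near 0 (Amotl1).
F3: ctatacaaagaAACTACAtatagttttat
Amotl2: tggaattaggtGAACTACccccacgtggc
Amotl1: gttataagcacAACTACAaagcaaattaa

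Yap1, the other lower gene, had no site, and neither had Lats2, Ccn1, Wwtr1, Tead1, Ccn2 or Ankrd1. Among the regulators named above, Amot and Limd1, which were lower, and Gadd45a, which was higher, each had at least 1 site, while the other genes named from the lists by the rule had none.

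The genes whose log2 CPM most resembled Yap1 and Ccn2 were sought among 10059 genes that averaged 5 CPM or more. Over the 6 libraries, Bub1 (Pearson 0.997), Echdc1 (0.996) and Neto2 (0.996) came closest to Yap1. Without WT replicate 1 they were Myo5c, Asap1 and Scd2, with coefficients of 0.99988 to 0.99996; Asap1 belongs to the target signature. For Ccn2 they were Irf2bp2 (0.991), Crlf3 (0.987) and Smoc1 (0.985) over 6 libraries and Spint2, Hoxa3 and Ubtd2 (0.998 each) over 5. The lists of 6 and 5 libraries share no gene, and with so few libraries in 2 groups likeness is a description without a test.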

How the data were processed

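Total RNA was taken up in TRIzol and 6 libraries were made and sequenced by Illumina's instructions, per the labels' protocols. Per the submitters' processing notes, the tools were HISAT2, StringTie, fastp and DESeq2, with no roles or versions, and the builds were the human hg38 and GRCh38, although all Ensembl identifiers in the files are of mouse. The counting program, and whether it used strand, is not given in the sources used here. Expected counts per gene were deposited by the authors, of which 10.1% to 13.0% per library were not whole, together with TPM values, which the authors scaled to a sum of 1000000 per library. Columns of group means were not used. Loci assembled from reads (528 rows without a gene name) took 0.626% to 0.865% of counts.

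Counts were rounded, filtered with filterByExpr, scaled by TMM and compared with the robust quasi-likelihood F test of edgeR 4.0.16 (R 4.3.3), two-sided, with Benjamini-Hochberg adjustment across every tested gene and a threshold of 0.05. The fit was run on 6 libraries and on 5, without WT replicate 1. The fit was tested on simulated data. The simulation had no outlying library and no length or GC trend, so it does not cover these features of the data. Alternatives were DESeq2 1.42.0 on the same filtered genes, limma 3.58.1 (voom, quality weights, and log2(TPM + 1) or log2(TPM + 0.1) for genes with at least 1 TPM), other scalings and filters, no robust estimation, a threshold of 0.01, removal of length or GC trends (lowess, span 0.3; GC known for 96.3% of genes), a replicate block, and each library left out. GC content, positions and 3' UTRs came from GENCODE M21.

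The 10 genes and all lists were chosen with earlier results of these data known. Named genes are the 10, Acsl5 and the 3 genes most like Ccn2 and Yap1. From each list they are up to 4 called genes with the largest fold change and a mean of at least 5 CPM, and the called gene furthest against the list. Outside this rule, Tead3, Ptpn14, Vgll genes without a test, overlapping neighbours and cell type markers were named too. The core kinase genes and Ccn5 were also named outside it and are marked in their paragraphs. Levels are TMM-scaled CPM, and log2 fold changes are knockdown minus WT.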

Additional observations from a re-analysis of the deposited data

How the results depend on the processing

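Without WT replicate 1, the calls of Lats2, Amotl2, Ccn1, Yap1 and F3 held in each of the alternatives run at a threshold of 0.05. The count of called genes among the 10 was 5, and 5 to 7 when a further library was left out. Over all genes the count of 5193 became 2467 with log2(TPM + 1), 2569 with log2(TPM + 0.1) and 3217 at a threshold of 0.01, and ranged from 2599 to 6188 when a further library was left out (a lone WT library is then assumed to vary like the others). The split of 2471 higher and 2722 lower became 1459 and 1008 with log2(TPM + 1) and 1549 and 1020 with log2(TPM + 0.1).

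With all 6 libraries no gene was called. Other settings called 4 genes (no filter), 1 (library totals), 8 (limma-voom), 5 (no robust estimation), 879 (length trend removed), 1127 (DESeq2) and 5937 (quality weights), and leaving out each library called 0 to 5193, with a value above 0 only for WT replicate 1. Of the 10 genes, none was called in edgeR, 4 in DESeq2, 6 with quality weights, 5 with the length trend removed, and 0 to 5 when each library was left out. TPM moved the median of all genes over the 6 libraries to 0.26 (pseudocount 1) and 0.30 (pseudocount 0.1).

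Signs turned in these cases, none of them called. Over the 6 libraries, on log2(TPM + 1) and log2(TPM + 0.1), Yap1 was at 0.0212 and 0.0248, Wwtr1 at 0.216 and 0.229, and Ankrd1 at 0.0981 and 0.103. Wwtr1 was also at 0.0314 with library totals and 0.0041 with the GC trend removed. Tead1 and Amotl1 were at -0.027 and -0.0268 with quality weights. Leaving out each library gave -0.039 (without WT replicate 1) to 0.471 for Tead1 and -0.048 (without WT replicate 1) to 0.397 for Amotl1. In the 5-library fit, Wwtr1 was at 0.0176 and Tead1 at 0.0379 with the GC trend removed, Tead1 at 0.0668 with the length trend removed, and Amotl1 at 0.0498 and 0.0527 on the TPM scales. The cause was not tested.

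With the replicate block, 0 genes were called over 6 libraries and 5753 without WT replicate 1, with 6 of the 10 genes, Wwtr1 (-0.19) being the added one. Deviations from the group means correlated at -0.156, 0.0719 and -0.281 between same-numbered libraries. Not every library correlated best with its own number. Within a group these deviations sum to 0, and WT replicate 1 lies far off, so the values cannot show or exclude pairs. The numbers are not taken as pairs. Among the called genes named, Ccn5 and Col8a1 had low levels, at 1.01 to 3.46 CPM, where depth limits the precision.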
